A study of Homo sapiens with 4 samples.

Results

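The 10 genes described here encode BCL2 family proteins, the regulators of the mitochondrial route to apoptosis. They were taken by symbol from the gene counts of 4 RNA-seq libraries: BCL2, BCL2L1, MCL1 and BCL2A1 as anti-apoptotic members, BAX and BAK1 as effectors, and BBC3, PMAIP1, BCL2L11 and BID as BH3-only members. All 10 are among the 61228 genes counted and among the 19159 genes that passed the filter on low counts. The libraries came from the human line H1792, which was established from a lung cancer and whose genotype is labelled WT, kept for 96 h with DMSO, the solvent control (2 libraries), or with ACBI1 (2 libraries). ACBI1 is a PROTAC, a bifunctional molecule that brings a protein to a ubiquitin ligase (here VHL) for degradation; its targets are SMARCA2, SMARCA4 and PBRM1, subunits of the SWI/SNF chromatin remodelling complexes. The labels write its dose as 1 mM, a unit that could not be checked from the counts. The comparison asks which transcripts differed after exposure to the degrader. Nothing says whether the replicates of a group were separate cultures, so the p-values measure the spread between these libraries, which may be technical.

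As background, anti-apoptotic members hold BAX and BAK1 in check at the outer mitochondrial membrane. BH3-only proteins are induced or activated by stress and bind the anti-apoptotic members, the effectors or both. Once freed and activated, BAX and BAK1 form pores that release cytochrome c, which starts the caspase cascade. Lung cancer cells often depend on BCL-xL, the long product of BCL2L1, and on MCL1.

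Of the 10 members, 4 fell with ACBI1 and none was called higher, at a Benjamini-Hochberg adjusted p under 0.05 in edgeR's quasi-likelihood test. Over all 19159 genes tested, 17.4% were called, 10.6% lower and 6.75% higher. The members that fell stood on both sides of the family: the anti-apoptotic genes BCL2L1 and MCL1, and the BH3-only genes PMAIP1 and BID. Neither effector was called. BAX had a log2 change of 0.40 and BAK1 one of -0.10. The median log2 change of the 10 members was -0.61, against 0.01 over all genes tested. It was -0.81 for the 4 anti-apoptotic members, 0.15 for the 2 effectors and -0.61 for the 4 BH3-only members. In 8 of the 10 members the groups did not overlap, a separation that 63.2% of all genes tested showed. In 6 of them both ACBI1 libraries were lower (32.2% of all genes tested) and in 2 both were higher (31.1%). BCL2A1, 1 of these 6, passed the filter on low counts only through the DMSO libraries. Its direction was thus fixed by the filter, and it also enters the medians of all members and of the anti-apoptotic members. With ACBI1 replicate 1 or ACBI1 replicate 2 left out, 1 member was called, PMAIP1 in each case, and without DMSO replicate 1 it was 3.

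**Figure D1:**
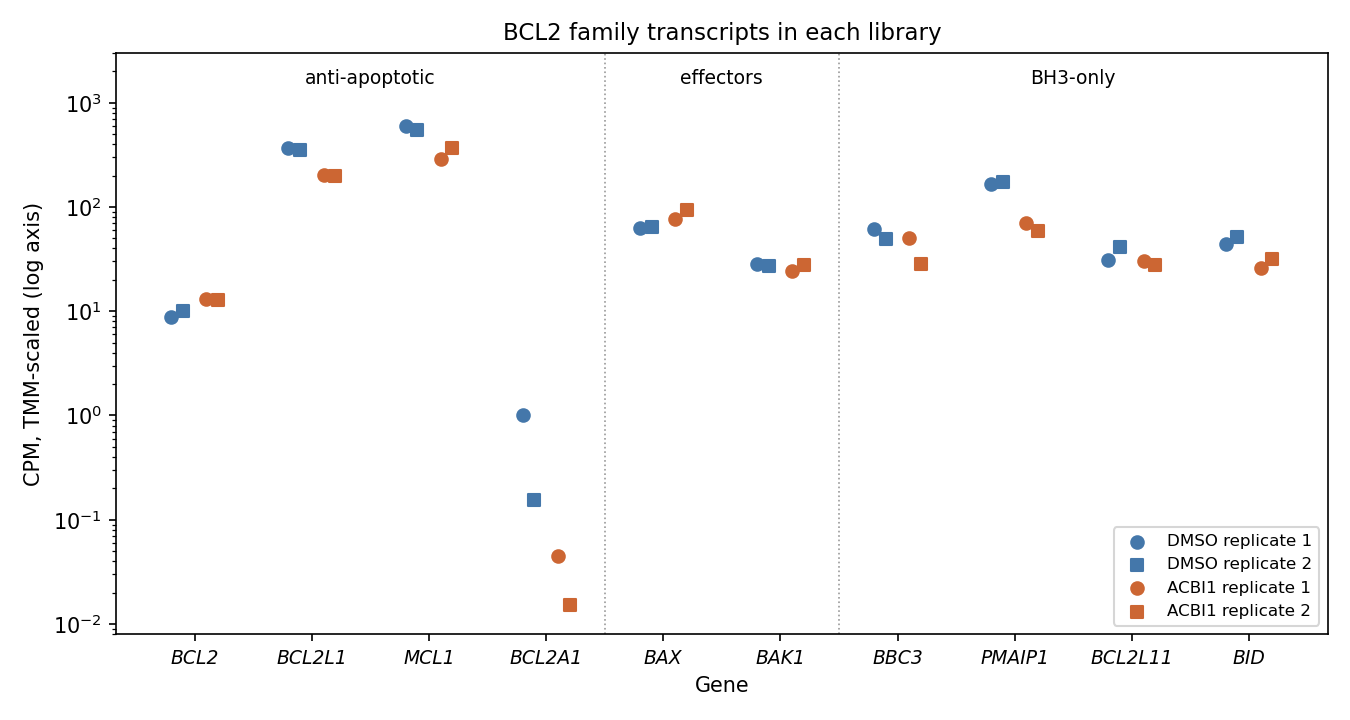
Counts scaled to library size (CPM, with TMM factors, log axis) of the 10 members in each library, with circles for replicate 1 and squares for replicate 2. BCL2L1, MCL1, PMAIP1 and BID sit lower in both ACBI1 libraries, BAX sits between 63.3 and 93.1 CPM in all libraries, and BCL2A1 is at or below 1.01 CPM.

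Sequence around the transcription start was set beside the changes for the 9 of 10 members with a matched RefSeq promoter window (GRCh38.p14). A window ran from 250 bases before to 50 after a start. Where there were several starts, the one nearest to the gene's 5′ end in GENCODE was taken. Below are the windows of PMAIP1 and BCL2L1, which had the lowest adjusted p, and of BAX and BBC3, which were not called and hold the most matches. Each is printed 5′ to 3′ on the gene's strand. Capitals mark matches on either strand to the AP-1 motif TGANTCA, the E-box CACGTG or the cyclic AMP response element half-site TGACGT.
PMAIP1: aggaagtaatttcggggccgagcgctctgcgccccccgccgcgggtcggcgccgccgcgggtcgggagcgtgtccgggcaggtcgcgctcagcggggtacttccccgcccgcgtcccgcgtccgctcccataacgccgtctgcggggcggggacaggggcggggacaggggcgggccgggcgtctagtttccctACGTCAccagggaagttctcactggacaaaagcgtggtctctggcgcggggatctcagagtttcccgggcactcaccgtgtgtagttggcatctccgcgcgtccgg
BCL2L1: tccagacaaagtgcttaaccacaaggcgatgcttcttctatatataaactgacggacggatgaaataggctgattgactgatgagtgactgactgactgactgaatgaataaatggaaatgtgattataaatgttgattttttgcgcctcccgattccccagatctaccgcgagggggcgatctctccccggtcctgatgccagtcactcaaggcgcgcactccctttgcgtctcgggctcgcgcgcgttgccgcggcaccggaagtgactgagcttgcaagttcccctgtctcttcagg
BAX: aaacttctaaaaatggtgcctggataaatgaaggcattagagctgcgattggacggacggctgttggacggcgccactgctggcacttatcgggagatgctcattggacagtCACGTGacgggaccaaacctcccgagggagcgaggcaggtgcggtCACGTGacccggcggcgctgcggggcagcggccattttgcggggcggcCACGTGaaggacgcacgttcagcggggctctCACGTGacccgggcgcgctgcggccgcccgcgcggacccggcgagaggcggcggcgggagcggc
BBC3: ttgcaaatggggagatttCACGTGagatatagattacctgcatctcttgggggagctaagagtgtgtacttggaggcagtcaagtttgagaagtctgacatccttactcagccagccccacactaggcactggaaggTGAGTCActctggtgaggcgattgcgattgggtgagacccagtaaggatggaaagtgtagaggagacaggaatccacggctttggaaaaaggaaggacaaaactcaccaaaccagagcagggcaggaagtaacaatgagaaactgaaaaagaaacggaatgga
The windows are chr18:59899746-59900045 (plus strand) for PMAIP1, chr20:31723914-31724213 (minus) for BCL2L1, chr19:48954625-48954924 (plus) for BAX and chr19:47232618-47232917 (minus) for BBC3. The PMAIP1 window holds 1 half-site, printed as its reverse complement, a motif found in 7.98% of 35116 windows of the same length. BAX has 4 E-boxes, the motif of MYC and related factors. At least 1 E-box was in 7.26% of all windows and at least 4 were in 5 windows (0.0142%), where a gene with several starts can count more than once. BBC3 has 1 E-box and 1 AP-1 match, the latter in 7.71% of all windows. None of these 3 motifs is in the BCL2L1 window. The NF-kB decamer consensus, held by 11.3% of all windows, was in none of the 9, and the p53 half-site consensus, held by 6.63%, was in that of BAK1 alone. These letter matches are a description and were chosen with the sequences in view.

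Among the anti-apoptotic members, BCL2L1 (chr20:31664452-31723989, minus strand) encodes BCL-xL and, by splicing, the pro-apoptotic BCL-xS, which gene counts do not separate. In CPM (counts scaled to library size, with TMM factors) it was at 364 and 353 CPM in DMSO replicates 1 and 2 and at 201 and 198 CPM in ACBI1 replicates 1 and 2. The replicates lay close together and the groups stood apart. BCL2L1 fell to 55.7% of its DMSO level, a log2 change of -0.85 (SE 0.16, n = 2 per group, edgeR adjusted p 0.0202). The call was lost without either ACBI1 library (adjusted p 0.115 without replicate 1 and 0.104 without replicate 2), while the log2 change was -0.84 and -0.85. Exons of ABALON, a transcript of the other strand, cover 43.0% of the exonic length of BCL2L1. ABALON itself had 113, 131, 68 and 82 counts in the same order of libraries, against 13010 to 29637 for BCL2L1.

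MCL1 (chr1:150574551-150579738, minus strand) encodes a short-lived anti-apoptotic protein. Its measured level per full exonic length was the highest of the members in both groups. BCL2L1 came next, and its level may be understated if reads in its overlap with ABALON were dropped. MCL1 stood at 594 and 542 CPM with DMSO and at 291 and 371 CPM with ACBI1. Both ACBI1 libraries were lower, replicate 1 more so than replicate 2. The log2 change of MCL1 was -0.78 (SE 0.20, edgeR adjusted p 0.0435), so that it fell to 58.3% of the DMSO level. It was not called without DMSO replicate 1 (log2 change -0.71, adjusted p 0.0593), without ACBI1 replicate 1 (-0.60, adjusted p 0.249) or without ACBI1 replicate 2 (-0.97, adjusted p 0.0797). The 7 genes listed for the ubiquitin ligases and deubiquitinases that act on the MCL1 protein, among them HUWE1 and USP9X, gave no call in the 6 tested, and none had an unadjusted p under 0.05 in edgeR. DESeq2 and limma-voom also called none. Their log2 changes ran from -0.20 to 0.09.

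BCL2A1 (chr15:79960889-79971446, minus strand), an anti-apoptotic gene known as a target of NF-kB and mostly expressed in blood cells, was rare. It had 82 and 11 counts with DMSO and 4 and 1 with ACBI1, or 1.01, 0.153, 0.0447 and 0.0153 CPM. DMSO replicate 1 held most of its reads, and the groups did not overlap. The fitted log2 change of -4.14 (SE 1.12) had an edgeR adjusted p of 0.0531 and was not called. In counts per library size, DMSO exceeded ACBI1 by a ratio of 18.8, with a 95% exact interval from 7.78 to 59.3 that covers counting error only. BCL2A1 passed the filter on low counts only through the DMSO libraries, so that it could enter the test only as a gene higher there. Without DMSO replicate 1 its log2 change was -2.21 (adjusted p 0.209), and without DMSO replicate 2 it was -4.93 (adjusted p 0.000884). DESeq2 called it lower (adjusted p 0.00585), as did the edgeR fit on every gene with a count (1.08e-07). Over the alternatives on all 4 libraries without a block the adjusted p ranged from 1.08e-07 to 0.0947. The lowest value rests on a smaller SE of 0.71, although the DMSO replicates had 82 and 11 counts. In that fit the SE of BMF, another BCL2 family gene, went from 0.72 to 0.26, while that of BCL2L1 went from 0.16 to 0.21. The genes nearest to BCL2A1 in pattern were ENSG00000234261 (distance 0.691), G0S2 (0.722) and HLA-B (0.785). The distance was Euclidean, of log2 CPM centred on the DMSO mean over the 4 libraries. Each of these genes was also highest in DMSO replicate 1, which the choice by pattern favours.

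BCL2 (chr18:63123346-63320128, minus strand), for which the family is named, was the only anti-apoptotic member with a higher mean with ACBI1. Its values were 8.88 and 10.1 CPM with DMSO and 13.2 and 12.8 CPM with ACBI1, with no overlap. The log2 change of 0.46 (SE 0.21) was not called (edgeR adjusted p 0.187), and over the alternatives on all 4 libraries without a block it ranged from 0.44 to 0.54, with no call. Per exonic length, BCL2 was at 0.807 ± 0.0737 RPKM (CPM per kilobase of exon, SD, n = 2) with DMSO and MCL1 at 130 ± 8.38, so that BCL2 stayed far below MCL1 and BCL2L1 in either group.

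**Figure D2:**
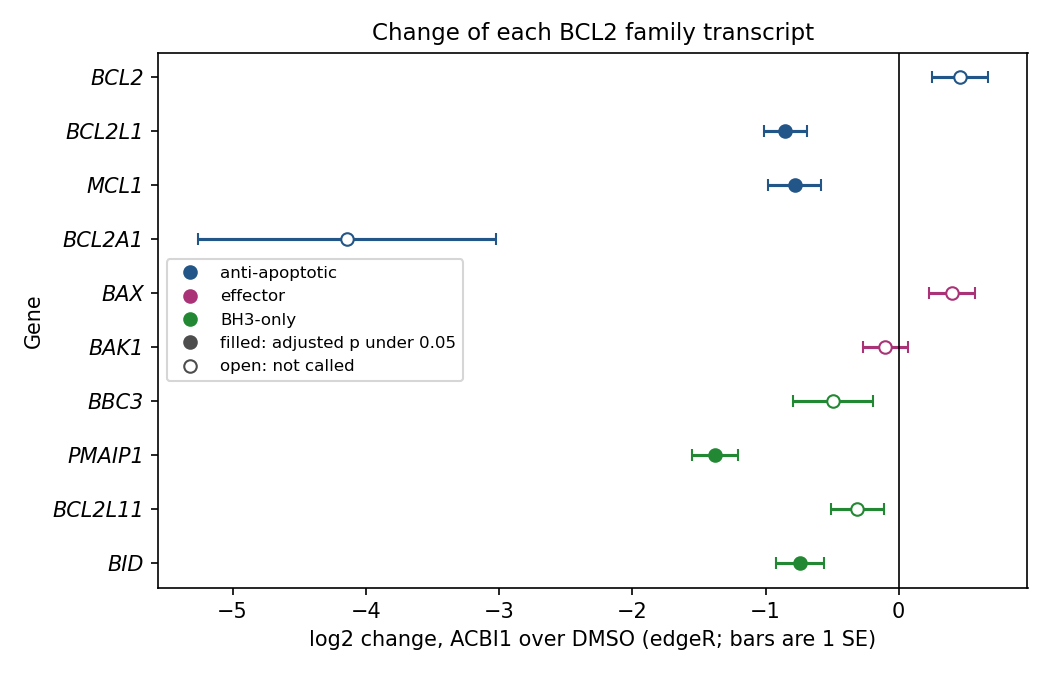
The log2 change of each member, ACBI1 over DMSO, as fitted by edgeR, with bars of 1 SE; filled points passed an adjusted p of 0.05 and colours give the class. The called members BCL2L1, MCL1, PMAIP1 and BID lie between -1.38 and -0.74, and the open point far to the left is BCL2A1, which rests on 98 counts in all.

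BAX (chr19:48954815-48961798, plus strand), the effector that moves from the cytosol to mitochondria, was at 63.3 and 64.7 CPM with DMSO and at 76.3 and 93.1 CPM with ACBI1. The groups did not overlap, and ACBI1 replicate 2 was the highest. No call was made for BAX (log2 change 0.40, SE 0.17, edgeR adjusted p 0.149). Without ACBI1 replicate 2 it was 0.24. BAK1 (chr6:33572547-33580293, minus strand), the effector that resides in the outer mitochondrial membrane, was at 28.5 and 26.9 CPM with DMSO and at 24.3 and 27.6 CPM with ACBI1. Its groups overlapped, and the log2 change was -0.10 (SE 0.17, adjusted p 0.734).

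PMAIP1 (chr18:59899948-59904306, plus strand) encodes NOXA, a BH3-only protein that binds MCL1 above all, and it had the most certain change of the family. It was at 166 and 173 CPM with DMSO and at 70.9 and 59.1 CPM with ACBI1. Both ACBI1 libraries lay far below both DMSO libraries. PMAIP1 fell to 38.4% of its DMSO level, a log2 change of -1.38 (SE 0.17, edgeR adjusted p 0.00673). It was called with each library left out in turn, with log2 changes from -1.51 to -1.27, and under all 8 alternatives on the 4 libraries without a block.

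BID (chr22:17734138-17774770, minus strand), which links death receptors to mitochondria once caspase-8 has cleaved it, was at 44.2 and 51.5 CPM with DMSO and at 25.9 and 31.5 CPM with ACBI1. The groups stood apart. BID fell to 60.0% of its DMSO level, with a log2 change of -0.74 (SE 0.18, edgeR adjusted p 0.0407). The call of BID was lost when libraries were scaled by their size alone (adjusted p 0.0525), without DMSO replicate 2 (0.114), without ACBI1 replicate 1 (0.224) and without ACBI1 replicate 2 (0.0785), where the log2 change ran from -0.89 to -0.59.

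BBC3 (chr19:47220822-47232766, minus strand) encodes PUMA, a BH3-only protein that binds all anti-apoptotic members and is a classic target of p53. It was at 61.4 and 49.3 CPM with DMSO and at 50.8 and 28.2 CPM with ACBI1, so that the groups overlapped and ACBI1 replicate 2 was the lowest. The log2 change of -0.49 (SE 0.30) was not called (edgeR adjusted p 0.299). Leaving out ACBI1 replicate 2 gave -0.13, and leaving out ACBI1 replicate 1 gave -0.97. BCL2L11 (chr2:111119378-111168447, plus strand) encodes BIM, a BH3-only protein known to be induced by FOXO factors. It was at 30.7 and 41.3 CPM with DMSO and at 30.5 and 27.7 CPM with ACBI1. Its groups barely separated. The log2 change of BCL2L11 was -0.31 (SE 0.20, adjusted p 0.328), or -0.08 without DMSO replicate 2, and exons of MIR4435-2HG cover 10.9% of its exonic length.

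Levels of the members were then compared with each other per full exonic length. Exons of ABALON overlap 43% of that of BCL2L1, and the strand setting is not known. Reads dropped there would lower the level of BCL2L1, so its order against MCL1 is uncertain. With DMSO the order from the top was MCL1, BCL2L1, PMAIP1, BAX, BBC3, BAK1, BID, BCL2L11, BCL2 and BCL2A1. With ACBI1, BAX and PMAIP1 changed places and the others kept their rank. PMAIP1 went from 75.8 ± 2.15 to 29.1 ± 3.71 RPKM (SD, n = 2), while BAX went from 24.7 ± 0.378 to 32.7 ± 4.62 RPKM. With ACBI1 this pair overlapped, since PMAIP1 was at 31.7 and 26.5 RPKM and BAX at 29.5 RPKM in its lower library. BBC3 and BAK1 also did not differ beyond their spread with ACBI1, at 12.4 ± 5.04 and 11.7 ± 1.06 RPKM, nor did BCL2 and BCL2A1 with DMSO, at 0.755 and 0.859 against 0.925 and 0.140 RPKM.

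Summed over each class, the anti-apoptotic members held 247 and 232 RPKM in the DMSO libraries and 128 and 146 RPKM in the ACBI1 libraries. For the BH3-only members the sums were 108 and 111 RPKM against 58.1 and 46.6 RPKM. The effectors were at 37.4 and 37.2 RPKM against 40.4 and 48.5 RPKM. Of the family's summed level, the anti-apoptotic members made up 63.0% and 61.0% with DMSO and 56.6% and 60.6% with ACBI1. The share of the effectors was 9.51% and 9.80% with DMSO and 17.8% and 20.1% with ACBI1. That of the BH3-only members was 27.5% and 29.2% with DMSO and 25.6% and 19.3% with ACBI1. Effectors and BH3-only members together made up 37.0% and 39.0% with DMSO and 43.4% and 39.4% with ACBI1. Sums and shares were mostly set by MCL1, BCL2L1 and PMAIP1, and the effector share moved while the effectors themselves were not called. The overlap of BCL2L1 with ABALON bears on these sums and shares as well. With 2 libraries against 2, an exact permutation test of such a value cannot reach a p of 0.05, so none was run.

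Ratios of per-length levels within a library do not depend on how libraries are scaled. The log2 ratio of BCL2L1 to BAX was 2.17 and 2.09 with DMSO and 1.04 and 0.73 with ACBI1. That of MCL1 to BAX was 2.47 and 2.31 against 1.18 and 1.24. Both ratios to BAK1 were also lower in both ACBI1 libraries, by 0.75 for BCL2L1 (3.11 to 2.36 on average) and by 0.69 for MCL1 (3.37 to 2.68). The ratios to PMAIP1 went the other way: for MCL1 to PMAIP1 they were 0.87 and 0.68 with DMSO and 1.07 and 1.68 with ACBI1, and for BCL2L1 to PMAIP1 they were 0.56 and 0.46 against 0.93 and 1.18. Relative to BID, both anti-apoptotic genes overlapped between groups, with mean differences of -0.11 for BCL2L1 and -0.05 for MCL1. Of 6 ratios each, 3 were lower and 1 higher in both ACBI1 libraries for BCL2L1, and 2 lower and 1 higher for MCL1. Set over every other tested gene in place of a pro-apoptotic one, the ratio was lower in both ACBI1 libraries for 71.1% of genes with BCL2L1 (9.80% higher) and for 67.2% with MCL1 (10.0% higher). The lower ratios to BAX and BAK1 are thus of a kind that most genes showed, and those to PMAIP1 of a kind that few showed. For BCL2, 5 of its 6 ratios were higher in both ACBI1 libraries (55.2% of all tested genes), and for BCL2A1, all 6 were lower (89.9%, with 0.626% higher). BCL2A1 passed the filter on low counts only through the DMSO libraries, which favours lower ratios with ACBI1. Its 6 ratios share the same few counts and are not separate results.

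**Figure D3:**
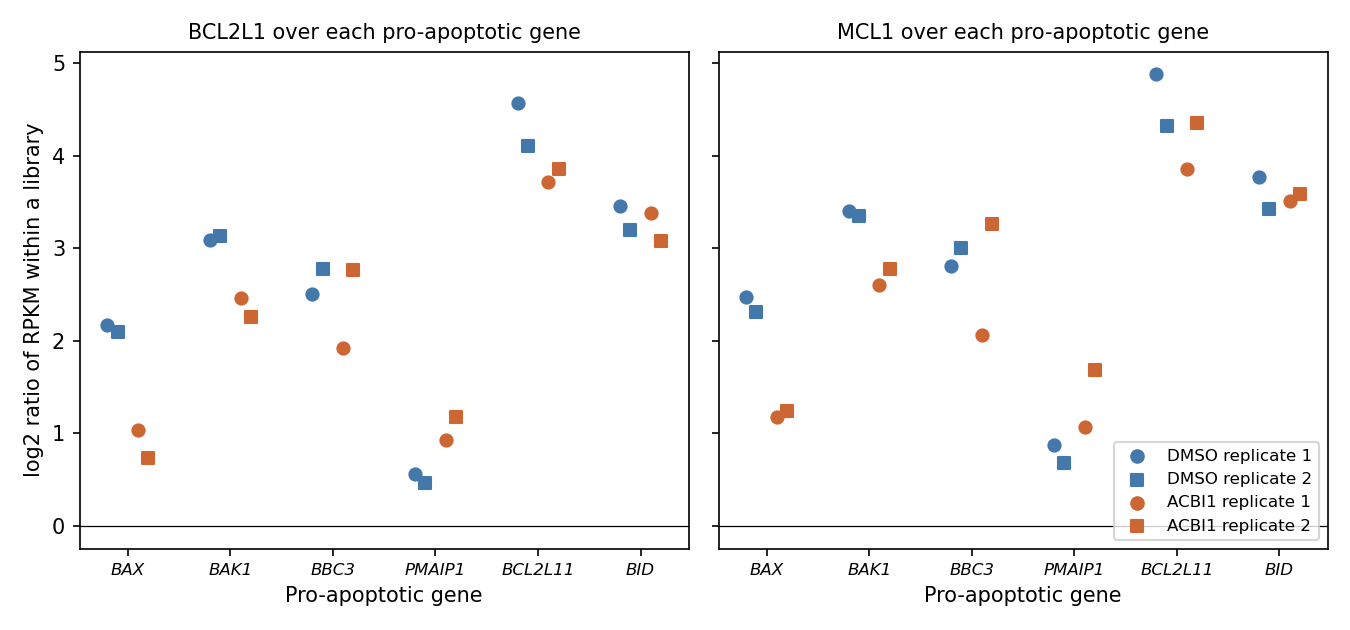
Log2 ratios of per-length levels (RPKM) of BCL2L1 (left) and MCL1 (right) to each pro-apoptotic member within each library. Ratios to BAX drop from 2.09 or more with DMSO to 1.24 or less with ACBI1, and ratios to PMAIP1 are higher in both ACBI1 libraries.

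Of 14 other genes of the BCL2 family that were listed, 13 were tested. Among these 3 fell and 1 rose, beside 10.6% and 6.75% of all genes tested, with a median log2 change of -0.17. BMF, which encodes a BH3-only protein held at the cytoskeleton, was at 31.3 and 102 CPM with DMSO and at 1.40 and 3.43 CPM with ACBI1. Its log2 change was -4.80 (SE 0.72, edgeR adjusted p 0.0108). With each library left out in turn it ran from -5.59 (ACBI1 replicate 2 left out) to -3.71 (DMSO replicate 2 left out), each time called. BNIP3L, a mitophagy receptor with a BH3-like stretch, fell from 64.4 and 91.9 CPM to 35.2 and 25.9 CPM (log2 change -1.35, adjusted p 0.0183), a call lost when ACBI1 replicate 2 was left out (0.0585). BCL2L12, whose exons share 33.1% of their length with IRF3, rose from 23.9 and 19.4 CPM to 42.5 and 40.7 CPM (log2 change 0.94, adjusted p 0.0198). Its call was lost when either ACBI1 library was left out, at adjusted p 0.0852 (replicate 1) and 0.0626 (replicate 2). BCL2L14 had 11 and 23 counts with DMSO and 0 and 1 with ACBI1, a ratio of 34.4 in counts per library size with a 95% exact counting interval from 5.77 to 1397. Its fitted log2 change of -4.80 (adjusted p 0.0336) became -3.74 with ACBI1 replicate 1 left out (adjusted p 0.172) and -7.21 with ACBI1 replicate 2 left out (0.0672), and was called in neither fit. Like BCL2A1, BCL2L14 passed the filter on low counts only through the DMSO libraries and could enter the test only as a gene higher there. The filter thus fixed its direction among the 3 that fell, though not the call. The edgeR fit on every gene with a count also called it lower (adjusted p 0.00033). BOK, an effector-like member named here after its values were seen, was at 8.69 and 9.90 CPM with DMSO and at 14.7 and 20.8 CPM with ACBI1 (log2 change 0.93). It missed the threshold by little, at an adjusted p that rounds to 0.05.

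Downstream of the mitochondria, all 19 genes listed for the apoptosome, caspases, IAP proteins (inhibitors of caspases) and released mitochondrial proteins were tested. Of these 5 rose and 1 fell, beside 6.75% and 10.6% of all genes tested, with a median log2 change of 0.18. The largest rise was that of BIRC3, which encodes the inhibitor cIAP2: from 136 and 109 CPM with DMSO to 746 and 356 CPM with ACBI1, a log2 change of 2.16 (SE 0.37, edgeR adjusted p 0.0154), or 1.54 with ACBI1 replicate 1 left out. BIRC5 (survivin, a gene of dividing cells) rose by 0.85 on the log2 scale (adjusted p 0.033) and CYCS (cytochrome c) by 0.75 (adjusted p 0.049). BIRC5 lost its call with ACBI1 replicate 2 left out (0.159), and CYCS with DMSO replicate 2 (0.167), ACBI1 replicate 1 (0.155) or ACBI1 replicate 2 (0.151) left out. Without DMSO replicate 2, without ACBI1 replicate 1 or without ACBI1 replicate 2, the count of calls in the list was 2 in each case.

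In the death receptor pathway, which reaches the BCL2 family through BID, 4 of 12 genes fell and none rose. Over all genes tested 10.6% fell and 6.75% rose. The median log2 change of the list was -0.62. The decoy receptor gene TNFRSF10D fell from 39.3 and 40.3 CPM to 18.4 and 13.8 CPM (log2 change -1.30, edgeR adjusted p 0.0111). TNFRSF1A, the main receptor for TNF, fell from 147 and 177 CPM to 73.4 and 76.5 CPM (log2 change -1.11, adjusted p 0.0114). The adaptor gene FADD fell by 1.06 on the log2 scale (adjusted p 0.0467); another gene overlaps 54.9% of its exonic length. CFLAR, an inhibitor of caspase-8, fell by 0.61 (adjusted p 0.0407). Of these 4 genes TNFRSF10D was called with any 1 library left out. With ACBI1 replicate 1 left out the adjusted p was 0.0639 for TNFRSF1A, 0.169 for FADD and 0.182 for CFLAR. FADD was also not called with DMSO replicate 2 left out (0.0666), nor CFLAR with DMSO replicate 2 (0.138) or ACBI1 replicate 2 (0.194) left out. The list's calls were reduced to 2 under scaling by library size only and without DMSO replicate 2, and to 1 without ACBI1 replicate 1.

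The transcription factor p53 is known to induce BBC3, PMAIP1 and BAX. Of 22 p53 target genes tested, 5 fell and 1 rose, beside 10.6% and 6.75% of all genes tested, with a median log2 change of -0.25. GDF15, a secreted stress factor, fell from 136 and 56.6 CPM to 3.91 and 1.85 CPM (log2 change -5.05, edgeR adjusted p 0.0054), and its log2 change was -4.28 with DMSO replicate 1 left out and -5.69 with ACBI1 replicate 1 left out. CDKN1A, the cell cycle inhibitor p21, fell from 83.3 and 143 CPM to 13.7 and 24.1 CPM (log2 change -2.58, adjusted p 0.0098). TP53INP1 fell by 3.09 on the log2 scale (adjusted p 0.0441) and BTG2 by 2.39 (adjusted p 0.0495). TP53INP1 was at -2.10 with DMSO replicate 2 left out and at -4.28 with ACBI1 replicate 2 left out, and was not called with ACBI1 replicate 1 left out (-2.41, adjusted p 0.0955). BTG2 was at -1.06 without DMSO replicate 2 (adjusted p 0.0916) and -3.07 without DMSO replicate 1, and its call was lost in 7 of the alternatives. Without DMSO replicate 2, without ACBI1 replicate 1 or without ACBI1 replicate 2, the list held 3, 2 and 3 calls.

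Another list held 19 tested genes for transcription factors known to regulate members, NF-kB feedback inhibitors included. Among these 5 fell and 1 rose, beside 10.6% and 6.75% of all genes tested, with a median log2 change of -0.17. TNFAIP3, an inhibitor of NF-kB signalling that NF-kB itself induces, fell from 150 and 209 CPM to 24.6 and 23.6 CPM (log2 change -2.90, SE 0.22, edgeR adjusted p 0.00231). TP63, a p53 relative, fell from 1.71 and 1.28 CPM to 0.201 and 0.183 CPM (log2 change -2.95, adjusted p 0.00932). JUN, a subunit of AP-1, fell by 1.70 on the log2 scale (adjusted p 0.0473). Leaving out DMSO replicate 2 gave -1.16, leaving out ACBI1 replicate 2 gave -2.32, and leaving out ACBI1 replicate 1 ended its call (adjusted p 0.131). E2F1, a driver of entry into S phase, rose with a log2 change of 1.93 (adjusted p 0.00485). The list held 3 calls without ACBI1 replicate 1.

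**Figure D4:**
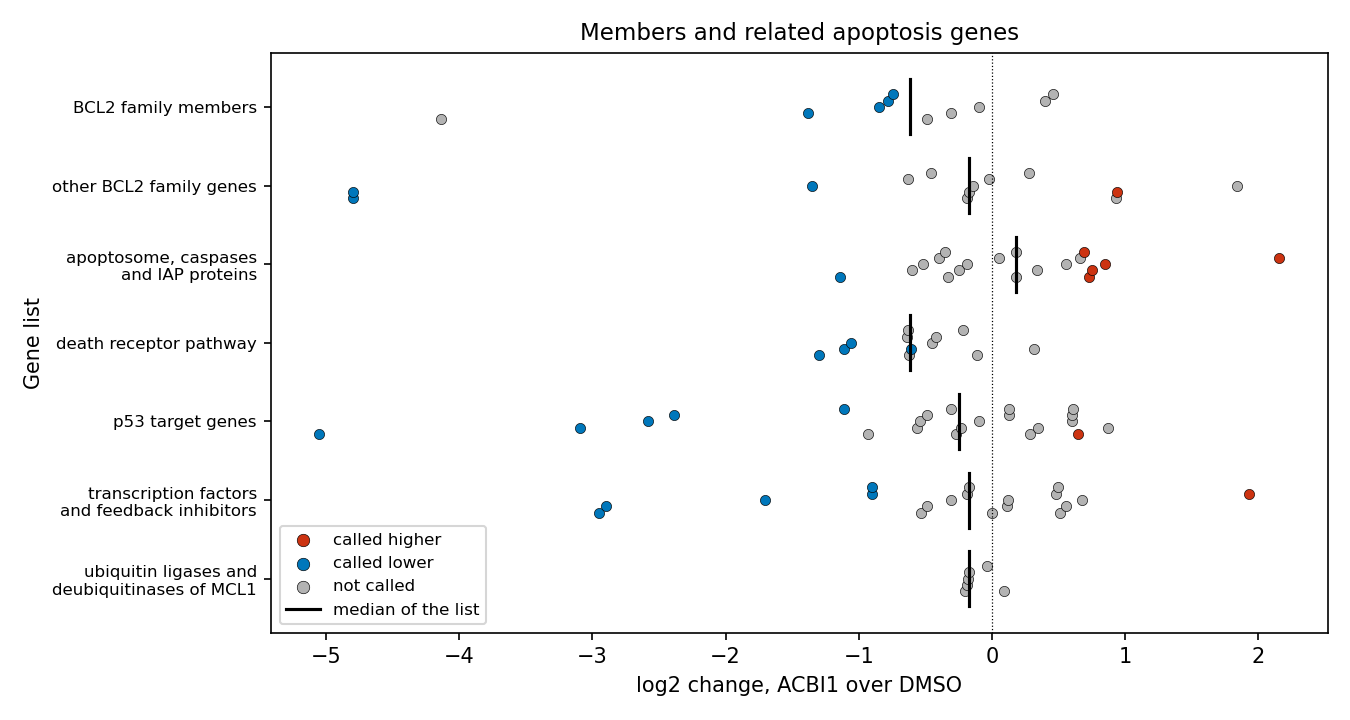
The log2 change of every tested gene in the member group and in 6 lists of related genes, with 1 point per gene and a black line at the median. Points called lower reach -5.05 (GDF15), and the highest called point is BIRC3 at 2.16.

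Measures of the whole data set bear on these values as follows. Counts assigned to genes summed to 64281850 to 86010100 per library, which puts the limit that a count of 0 allows (3 counts) at 0.0335 to 0.0458 CPM. Log2 CPM correlated across genes, which are not independent replicates, at 0.983 and 0.986 within groups and at 0.928 to 0.948 between them. Transcripts of the degrader's targets SMARCA4, SMARCA2 and PBRM1 had log2 changes of 0.70, -0.40 and 0.10 and were not called; their proteins were not measured here. Of 6 epithelial markers, all were detected, led by KRT7, KRT8 and KRT18, with CDH1 at 0.0491 to 0.222 CPM, while of the lung epithelial markers NKX2-1 had no count and the summed level of the 4 was 0.112 to 0.334 CPM. The summed level of the 6 epithelial markers was 982 and 1035 CPM with DMSO and 323 and 202 CPM with ACBI1. Of the 5 tested, 4 fell, beside 10.6% of all genes tested. EPCAM did not fall: it was at 5.38 and 2.78 CPM with DMSO and at 15.6 and 4.84 CPM with ACBI1. Its groups overlapped and it was not called. Of 7 leukocyte markers, CD3E, MS4A1 and HBB had no count and the sum was 0.168 to 0.778 CPM. The 3 endothelial markers summed to 12.6 and 48.5 CPM with DMSO, nearly all from PECAM1, and to 0.0112 and 0.0458 CPM with ACBI1, and the 4 fibroblast markers to 31.6 and 96.9 CPM against 9.38 and 13.2 CPM. Both of the 2 endothelial markers tested and 3 of the 4 fibroblast markers were called lower. The part of these shifts in the members' changes was not tested. In bulk RNA, fewer cells that express a gene and less RNA of it per cell cannot be told apart.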

How the data were processed

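RNA was sequenced from 2 DMSO and 2 ACBI1 libraries of H1792 cells. The deposited values are raw read counts per gene symbol, 1 file per library, not normalized. TopHat2 2.1.1, HTSeq 0.11.0 and build hg38 are named, per the submitters' processing notes; the annotation and strand setting are not given in the sources used here. The 5 lines for reads given to no gene (13.9% to 15.4% of reads) were left out. Without a known strand setting, reads of overlapping genes can be dropped or assigned wrongly.

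Genes were filtered with filterByExpr (minimum count 10, minimum total 15), scaled by TMM and compared by the quasi-likelihood test of edgeR 4.0.16 under R 4.3.3 (glmQLFit, glmQLFTest, two-sided) on treatment alone, with Benjamini-Hochberg adjustment over all 19159 genes and a threshold of 0.05. The SE is the log2 change over the square root of F. CPM use TMM-scaled library sizes; RPKM divide them by the exonic length in GENCODE release 29 (GRCh38). Promoter windows are from RefSeq (GRCh38.p14). On simulated counts with the same means and library sizes, 18655 genes were tested. Of the genes given a log2 change of 1, 98 passed the filter, and 30.6% of these were recovered. Of those given 2, 93 passed and 78.5% of these were recovered, with 9 false calls among all genes tested. Changed genes lost to the filter are not counted in these rates. Far fewer genes changed there than the 17.4% called in the data, and variation followed the fitted trend alone. The rates may thus differ in the real comparison.

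The members, lists and tests were chosen with earlier results of these data known. All members are named, and from a list up to 4 of its called genes, taken by size of change (1 such gene is not reported here); for the member with the largest change, the 3 nearest genes in pattern (prior count 2). Alternatives were other scalings (DESeq2 size factors, library size only, upper quartile), other filters (every gene with a count, mean of at least 5 CPM), a replicate block, DESeq2 1.42.0, limma-voom (limma 3.58.1), a threshold of 0.01, and fits that each omit 1 library. With a library left out, the lone sample of its group is assumed to vary like the other group.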

Additional observations from a re-analysis of the deposited data

How the results depend on the processing

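The 4 calls among the 10 members were 3 under scaling by library size only, 5 with DESeq2 and with every gene that had a count, 1 at a threshold of 0.01, and 1 to 4 with a library left out. All 4 called members kept a negative log2 change under every alternative run. BAK1, not called, changed sign without ACBI1 replicate 1 (0.00, from -0.20 to 0.00 over the 4 fits that omit a library). Over all genes the 3331 calls became 5518 with every gene that had a count, 783 at 0.01 and 1379 to 4292 with a library left out. Of the 3331 calls 1294 were higher and 2037 lower (61.2% lower), against 1755 and 1866 (51.5% lower) under library size only. At 0.01, the lists held 0 calls (other BCL2 family genes, 4 before), 0 (apoptosome, caspases and IAP proteins, 6 before), 0 (death receptor pathway, 4 before), 2 (p53 targets, 6 before) and 3 (transcription factors, 6 before). With a library left out these counts ran from 1 to 5, 2 to 5, 1 to 4, 2 to 7 and 3 to 7 in the same order, and fewer samples are tested there. Under library size only the death receptor list held 2 calls, and the cause was not tested.

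Replicate numbers are shared between groups, but nothing says that they mark a shared batch. Deviations from the group means correlated at 0.442 across genes between replicates 1. With the replicate number as a block, 7909 genes were called, 8 of the 10 members (6 lower, 2 higher), and 7, 11, 7, 12 and 12 genes of the lists. BCL2 (adjusted p 0.0489) and BAX (0.0281) were then called higher and BBC3 (0.0115) and BCL2A1 (0.000391) lower, in edgeR with this pairing.

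At 64281850 to 86010100 counts per library a count of 0 allows up to 0.0335 to 0.0458 CPM, and BCL2A1 (4 and 1 counts) and BCL2L14 (0 and 1 counts) lay near that limit with ACBI1.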
